A study of Mus musculus with 2 samples.

Results

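Ribosomal protein genes encode the protein part of the ribosome, and mammalian genomes hold a far larger number of processed pseudogenes copied from their messenger RNAs. KLF4 peaks assigned to both were taken from a peak list of sorted mouse portal fibroblasts. A peak belonged here when the symbol of its nearest gene began with Rpl or Rps and a digit, or was Rplp0, Rplp1, Rplp2 or Rpsa, with or without a pseudogene suffix, and was not an Rps6k kinase. Of 4216 peaks in all, 23 met this rule, each with a symbol of its own. The nearest gene was protein-coding for 5, a processed pseudogene for 17 and a long non-coding RNA (lncRNA) for 1.

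Portal fibroblasts lie around the bile ducts and vessels of the liver's portal tracts and make extracellular matrix. They were sorted from Clec3bCreERT2;R26tdT mice as Clec3b-tdT+ cells, so the gate depended on a drug-inducible Cre at Clec3b and a red reporter, and Klf4 was overexpressed in them with a lentivirus. The study asked how KLF4, a zinc-finger transcription factor, influences their change into myofibroblasts. KLF4 binding was measured by ChIP-seq (sequencing of DNA precipitated with an antibody to KLF4), with 1 ChIP library set against 1 input library. Both came from cells that overexpressed Klf4, no library without added Klf4 was analysed here, and ChIP peaks do not measure RNA, so the cell type could not be checked against its markers. Since each kind had 1 library, replicate error cannot be given for any value. Folds and q-values per peak were set by the authors' peak calling, and peak positions are on GRCm39.

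Ribosomal protein genes are transcribed by RNA polymerase II in all growing cells, at levels that keep the parts of the large subunit (Rpl) and the small subunit (Rps) in balance. Their messenger RNAs start with a C followed by a tract of pyrimidines, the TOP element, through which mTOR signalling controls their translation. Processed pseudogenes arise when such a messenger RNA is reverse transcribed and inserted elsewhere, so they usually lack the promoter of the parent gene. KLF4 binds GC-rich and CACCC-type sequences.

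In the whole list 83 of 4216 peaks touched a transcription start site (TSS), among them 64 of 1856 coding peaks. Here such peaks were found at 3 genes, Rpl41, Rpl32 and Rpl38. All 3 are of the large subunit, and Rpl symbols made up 56 of the 91 coding symbols that met the rule. With 3 genes no preference for a subunit is read from this. The promoters of Rpl41 and Rpl38 are printed to show the letters around 2 of these 3 starts. They are as RefSeq gives them on the older assembly GRCm38.p6, from 250 bases before the start to 50 from it on. Rpl32 had no usable promoter entry there, so it is neither printed nor among the ribosomal protein promoters counted below. Rpl41 lies on the minus strand (chr10:128549119-128549418) and Rpl38 on the plus strand (chr11:114668330-114668629). Capitals mark matches on either strand to CACCC, to GGGCGG or to CCNCNCCC, the short forms of KLF and GC-box motifs searched here.
Rpl41: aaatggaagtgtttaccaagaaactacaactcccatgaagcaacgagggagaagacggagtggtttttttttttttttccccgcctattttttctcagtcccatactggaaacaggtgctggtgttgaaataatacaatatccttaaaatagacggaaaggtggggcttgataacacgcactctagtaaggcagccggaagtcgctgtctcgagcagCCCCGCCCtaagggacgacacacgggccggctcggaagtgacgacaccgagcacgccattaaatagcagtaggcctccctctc
Rpl38: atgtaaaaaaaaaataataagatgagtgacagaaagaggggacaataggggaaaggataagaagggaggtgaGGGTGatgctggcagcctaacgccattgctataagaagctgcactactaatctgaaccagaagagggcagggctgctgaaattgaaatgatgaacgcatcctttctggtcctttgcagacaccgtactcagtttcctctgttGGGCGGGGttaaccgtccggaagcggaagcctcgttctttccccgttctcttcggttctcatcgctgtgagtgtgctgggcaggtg

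Each promoter held 1 GGGCGG match shortly before its start. In Rpl38 it lay on the gene's strand at positions -36 to -31 from the RefSeq start, and in Rpl41 on the opposite strand at -31 to -26. Both matches overlapped a match to CCNCNCCC, and Rpl38 also had a CACCC match on the opposite strand at -178 to -174. Such short motifs were common. GGGCGG was present in 58.0% of 81 promoters of 69 ribosomal protein symbols (exact interval 46.5% to 68.9%), in 46.2% of 21263 promoters of protein-coding genes and in 35.7% of all 32851 RefSeq promoters of the same length. For CACCC these shares were 55.6%, 59.5% and 57.5%, and for CCNCNCCC 59.3%, 56.6% and 49.5%. The RefSeq start of Rpl38 was a C inside a run of 10 pyrimidines, while the RefSeq start of Rpl41 was a G. A start inside a run of at least 5 pyrimidines was seen in 28.4% of the ribosomal protein promoters, in 8.59% of protein-coding promoters and in 10.1% of all promoters. Whether the RefSeq starts and the starts used for the peaks are the same base was not checked, since the assemblies differ, and a match is a description of letters, not of binding.

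Rpl41, which encodes a very small basic protein of the large subunit, had the strongest of the 23 peaks. The peak covered 589 bp of chromosome 10 (128384858 to 128385446), from 424 bp upstream of the TSS to 164 bp downstream. Its fold enrichment was 6.12 with a q of 0.000339. The number of ChIP fragments over the summit, recovered from fold and p, was 7, at a background of 1.00 times the genome-wide level of 0.307 fragments. Among all 4216 peaks, 101 had a higher fold and 94 were wider, and 27 of the 868 promoter peaks had a higher fold.

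Rpl32 encodes another large subunit protein. Its peak, 573 bp on chromosome 6 (115785679 to 115786251), reached from 543 bp upstream to 29 bp downstream of the TSS and so lay mostly before the transcript. The fold was 5.30 with a q of 0.00562, from 6 ChIP fragments at 1.04 times the genome-wide background. In the whole list 494 peaks had a higher fold, 111 were wider, and 122 promoter peaks had a higher fold.

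Rpl38 encodes a large subunit protein known in mouse for its part in the translation of Hox messenger RNAs. Its peak was narrower and weaker, 203 bp on chromosome 11 (114559181 to 114559383), from 169 bp upstream to 33 bp downstream of the TSS. The fold was 4.59 with a q of 0.0475, from 5 ChIP fragments at the genome-wide background. This was the smallest number of fragments at any peak in the list, and 989 peaks shared exactly this fold and q. Of the 23 peaks, only those of Rpl41 and Rpl32 had a q under 0.01. In the whole list 735 of 4216 peaks had one, with 314 of 1856 coding and 126 of 788 processed pseudogene peaks.

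**Figure D1:**
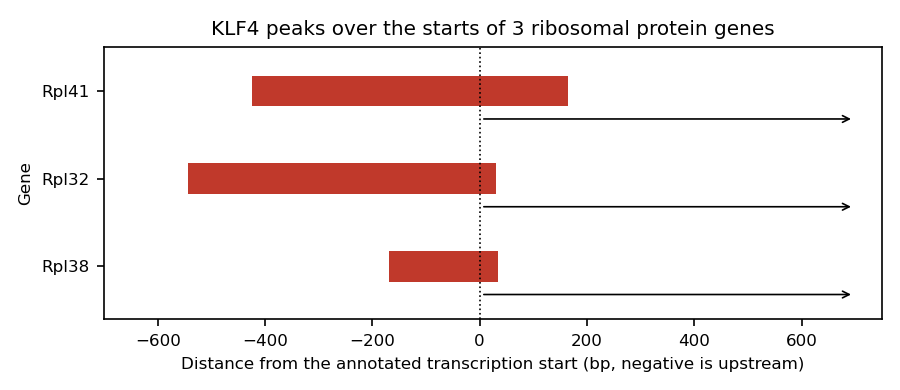
Extent of the peaks at Rpl41, Rpl32 and Rpl38 in bp from the annotated transcription start of each gene, with upstream to the left; red bars are the authors' peaks and arrows show the direction of transcription, not transcript length. All 3 bars cross the start, and the Rpl41 and Rpl32 peaks (589 and 573 bp) extend further upstream than the Rpl38 peak (203 bp).

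The other coding symbols had peaks away from their own starts. Rps15a, which encodes a small subunit protein, was assigned a peak of 247 bp on chromosome 7 (117720928 to 117721174), 5517 bp upstream of its TSS and annotated as 3′ UTR, and so outside the Rps15a transcript used for the distance. The next coding gene on that side in the GRCm38.p6 gene table was Arl6ip1, an endoplasmic reticulum protein gene. Rps19bp1, a binding partner of the RPS19 protein and not itself a ribosomal protein, was assigned a distal intergenic peak of 182 bp on chromosome 15 (80159565 to 80159746), 11049 bp upstream. The next coding gene on that side was the calcium channel gene Cacna1i. Both peaks had the fold of 4.59 and the q of 0.0475 of the Rpl38 peak, from 5 ChIP fragments each.

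Most coding ribosomal protein genes, like most coding genes of the table, had no assigned peak. The gene table held 91 protein-coding symbols that met the rule, including Rps19bp1 and 2 symbols with a pseudogene suffix. Of these, 6 had an assigned peak (6.59%, 95% exact binomial interval 2.46% to 13.8%), the 5 coding symbols above and Rpl31-ps12, which the table types as coding, and 85 had none. Of all 21900 protein-coding genes of the table, 6.91% had one. A promoter peak (within 3 kb of a TSS) was present at 3 of the 91 (3.30%, exact interval 0.685% to 9.33%). Among all coding genes of the table the share was 2.17%, inside that interval. Within 1 kb the count was again 3 of 91, and the share of all coding genes was 1.19%. By subunit, promoter peaks stood at 3 of 56 Rpl symbols (5.36%, 1.12% to 14.9%) and at 0 of 35 Rps symbols, where the exact interval reaches up to 10.0%. These intervals cover counting error only. Each peak carries only the symbol of its nearest gene, so a gene without one may still hold a peak named for another gene. At 5 to 7 fragments a peak, absence of binding is not shown either.

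The 17 peaks of processed pseudogenes lay apart from the pseudogenes they were named for. None overlapped the annotated pseudogene (0 of 17, exact interval up to 19.5%), and among all 788 processed pseudogene peaks 5 did (0.635%). The nearest was 2129 bp from the pseudogene's start and the farthest 198560 bp, with a median of 10959 bp. Of the 17 peaks, 8 lay upstream and 9 downstream. By class, 7 were distal intergenic, 7 intronic, 1 in a 3′ UTR and 2 in the 2 to 3 kb promoter class. Of all 788 processed pseudogene peaks, 71.2% were distal intergenic and 18.3% intronic, against 41.2% each here (exact interval 18.4% to 67.1%). Pseudogenes of the ribosomal families had an assigned peak at 15 of 324 symbols in the gene table (4.63%, 2.61% to 7.52%), against 4.59% of all 10442 pseudogenes there. The table lacked Rpl36a-ps4 and typed Rpl31-ps12 as coding, so these 2 are not among the 15. Matching by symbol also lost others from the comparison share. It counts 479 pseudogenes with a peak, while the peak list holds 697 processed pseudogene symbols, so the 2 shares are not strictly alike.

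The pseudogene peaks in the promoter class belonged to Rps13-ps6 and Rpl30-ps6. Rps13-ps6 had the widest of the 23 peaks, 738 bp on chromosome 2 (143694703 to 143695440), at -2129 bp. It was also one of the weakest, with a fold of 4.42 from 5 fragments. Rpl30-ps6 had a peak of 209 bp on chromosome 1 (86398204 to 86398412) at -2969 bp, just inside the 3 kb limit, with a fold of 4.80 from 6 fragments. The lncRNA-typed Rps18-ps4, a pseudogene by name with an annotated transcript of 9854 bp, had a peak of 241 bp at 2674 bp on chromosome 13 (97890294 to 97890534), inside that transcript, with a fold of 4.59 from 5 fragments. None of these peaks was within 1 kb of a start.

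The strongest pseudogene peak was that of Rpl31-ps18 on chromosome 19 (51788054 to 51788264), with a fold of 5.05, a q of 0.0129 and 6 fragments, 7390 bp downstream of the start. Rpsa-ps8 followed with a fold of 5.00 and 7 fragments, 196225 bp away, at 1.96 times the genome-wide background, the highest background of the 23. Rpl7a-ps5 had a fold of 4.65 from 6 fragments at -198560 bp, the longest distance of the 23. These distances are to the nearest annotated TSS of any kind, so a peak this far from a pseudogene is linked to it by position alone.

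The remaining 12 pseudogene peaks spanned folds of 4.42 to 4.59. Rpl17-ps11, Rpl21-ps8, Rpl31-ps12 and Rps16-ps2 shared the common fold of 4.59 from 5 fragments, and Rpl15-ps1 had 4.57 from 5. Rpl15-ps5 and Rps15a-ps2 both had 4.54, and Rpl17-ps1, Rps13-ps1 and Rpsa-ps5 all had 4.51, each from 6 fragments over a higher background. Rpl36a-ps4 had 4.45 and Rpl34-ps2 4.42, from 5 fragments each. Thus 21 of the 23 peaks, all but those of Rpl41 and Rpsa-ps8, rested on 5 or 6 fragments. So did 3176 of all 4216 peaks and 627 of all 788 processed pseudogene peaks, so low counts were common in the whole list.

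**Figure D2:**
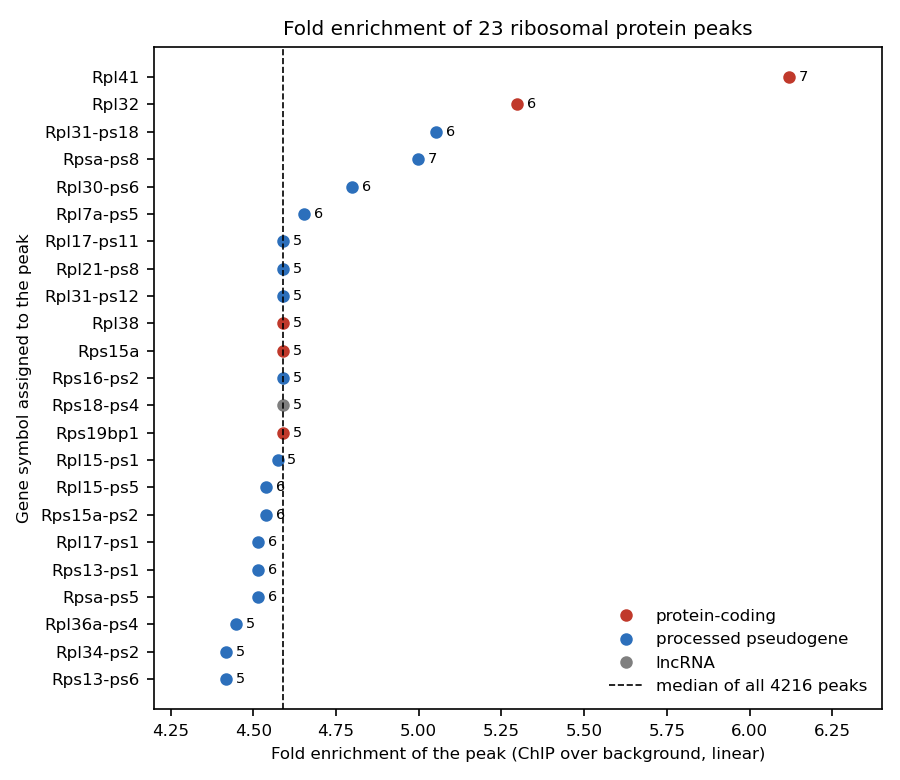
Fold enrichment (x axis, linear ratio of ChIP over background) of the 23 peaks, 1 row per assigned gene symbol (y axis), coloured by gene type; the number beside each point is the count of ChIP fragments at the summit, and the dashed line is the median of all 4216 peaks (4.59). Rpl41 (6.12) and Rpl32 (5.30) stand to the right, and the pseudogene peaks lie between 4.42 and 5.05.

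Several of the pseudogenes sit inside longer genes. Of 17 symbols with a pseudogene suffix found in the gene table, 7 were nested in another gene on GRCm38.p6. These were Rpl15-ps5 in the chromatin remodelling gene Rsf1, Rpl17-ps11 in the glycogen phosphatase gene Epm2a, Rpl21-ps8 in the myelin gene Mbp, Rpl31-ps12 in Spag6l, Rpl7a-ps5 in Cntnap5c, Rps13-ps6 in the lens filament gene Bfsp1 and Rps16-ps2 in the receptor gene Adgrd1. All but Rps13-ps6 had an intronic peak, and Rps15a-ps2 had one without being nested in the table. How many other pseudogenes are nested was not counted, so the 7 of 17 is a description only. The transcripts whose introns held these peaks were not matched to symbols. The typing of Rpl31-ps12 differed between sources, a processed pseudogene in the peak list but protein-coding in the gene table, and the peak list also placed it in the ribosome pathway.

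The 17 pseudogenes with a peak came from 12 parent genes. Of these parents 1, Rps15a, had an assigned peak, 5517 bp upstream of its TSS. Of all protein-coding genes of the table, 6.91% had an assigned peak, so with 12 parents the count is a description only. Pairs of pseudogenes with peaks came from 5 parents, Rpl15, Rpl17, Rpl31, Rps13 and Rpsa. No pseudogene of Rpl41, Rpl32 or Rpl38, the genes with TSS peaks, was assigned a peak. Only 4.59% of all pseudogenes in the gene table had one under the same symbol, so no contrast is drawn. How the authors' alignment treated reads that match several copies is not given in the sources used here, and its part in these values was not tested.

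Coding and pseudogene peaks were then compared by class and by distance. Peaks touching the TSS numbered 3 of 5 for coding symbols and 0 of 17 for pseudogenes, and among all peaks in the list 64 of 1856 coding and 0 of 788 processed pseudogene peaks touched one. Annotated promoter peaks within 3 kb made up 60.0% of the coding peaks (3 of 5, 14.7% to 94.7%) and 11.8% of the pseudogene peaks (2 of 17, 1.46% to 36.4%). Over the whole list these shares were 29.3% for protein-coding and 9.01% for processed pseudogene peaks. The difference of 48.2 percentage points missed the threshold (Fisher's exact test, two-sided, p = 0.0549). With promoters limited to 1 kb it was 60.0 points (Fisher's exact p = 0.00649). Over the whole list 15.2% of coding and 2.54% of processed pseudogene peaks lay within 1 kb. At 3 kb but without Rps19bp1, a change added after the data were seen, the difference was 63.2 points (Fisher's exact p = 0.0276). With Rps18-ps4 counted as a pseudogene, also added later, it was 43.3 points (Fisher's exact p = 0.0886). The test describes this list of peaks, not samples, and its side of the threshold depends on the promoter limit and on 1 gene that is not a ribosomal protein. Coding and processed pseudogene peaks differed in the same direction over the whole list. The test therefore cannot show a trait particular to ribosomal protein peaks, and no conclusion is drawn from it.

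**Figure D3:**
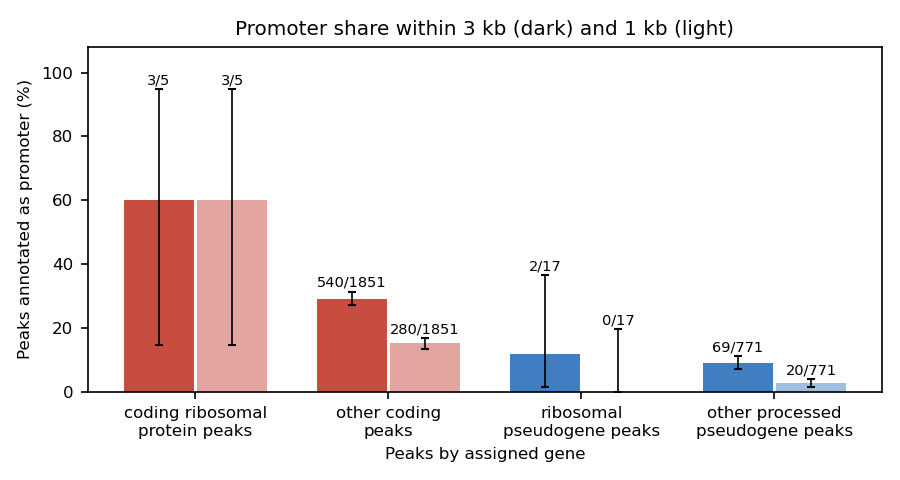
Percentage of peaks annotated as promoter (y axis) for coding and pseudogene ribosomal protein peaks and for the other peaks of the same gene types (x axis), within 3 kb (dark bars) and within 1 kb (light bars); error bars are 95% exact binomial intervals and the labels give peaks counted over peaks in the group. The coding ribosomal bars (60.0%) stay the same at the narrower limit while the pseudogene bar goes from 11.8% to 0%, with wide intervals at 5 and 17 peaks.

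By distance, the median was 0 bp for the 5 coding peaks and 10959 bp for the 17 pseudogene peaks. Over the list, coding peaks had a median of 7.60 kb and processed pseudogene peaks 24.1 kb. Peaks over 10 kb away were 1 of 5 and 10 of 17, against 43.4% of all coding and 73.5% of all processed pseudogene peaks. The median fold was 4.59 for coding and 4.57 for pseudogene members and 4.59 for the whole list, and 0 of the 23 peaks lay in high input background (over 10 times the genome-wide level), against 202 of 4216 in all. Peaks touching the TSS of the 61 other coding genes had a median fold of 4.59 and a median width of 311 bp, so Rpl41 and Rpl32 were above and Rpl38 at or below these medians.

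**Figure D4:**
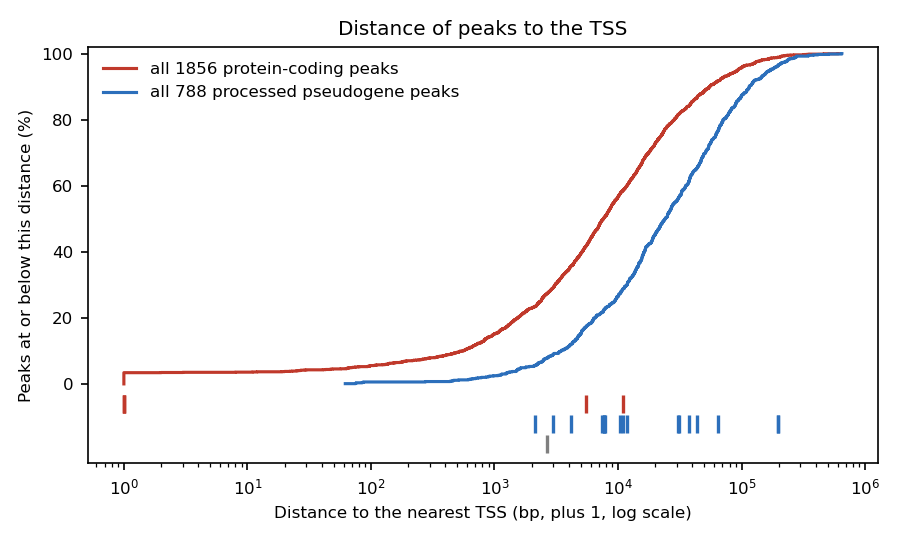
Cumulative percentage of peaks (y axis) by distance to the nearest TSS (x axis, bp plus 1, log scale) for all protein-coding and all processed pseudogene peaks; ticks under the curves mark the members, red for coding (3 coincide at 0 bp), blue for pseudogene and grey for the lncRNA. The blue ticks begin at 2129 bp, beyond the promoter band of 1 kb.

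Related genes were counted in the same way for a promoter peak within 3 kb. Of all coding genes of the table, 2.17% had one. Of 78 mitochondrial ribosomal protein genes 1 had one (1.28%), Mrps10 (fold 4.59, -512 bp), and of 30 ribosome biogenesis genes on a hand-written list 0 had one (exact interval up to 11.6%). Other genes that the peak list itself places in the ribosome biogenesis pathway did have promoter peaks, a look-up made after their values were seen. They were Mdn1 (fold 4.59, 995 bp), Utp6 (4.59, -2906 bp) and Wdr43 (4.45 at -2825 bp and 4.51 at 2592 bp), each peak with 5 fragments. Others placed in a ribosome pathway, Afg2a, Gtpbp4, Nvl, Pop4 and Pop5, had intronic or distal intergenic peaks. The look-up covers only genes with a peak, so it gives no share. Of 19 genes from mTOR to the ribosome 2 had a promoter peak (10.5%, 1.30% to 33.1%). They were the kinase gene Mtor (fold 4.51, -97 bp) and its partner Rptor (4.43, -149 bp), with 5 fragments each. Of 21 translation factors and partners whose messenger RNAs carry or are linked to TOP elements 4 had one (19.0%, 5.45% to 41.9%), against 2.17% of all coding genes. They were the RNA-binding protein gene Hnrnpa1 (fold 5.84, 8 fragments, over the TSS), the nucleolar chaperone gene Npm1 (5.40, -2035 bp), the filament gene Vim (5.04, -62 bp) and the initiation factor gene Eif3a (4.80, -1520 bp). Within 1 kb the count was 2 of 21 (9.52%, 1.17% to 30.4%), Hnrnpa1 and Vim. The share of all coding genes within 1 kb was 1.19%, inside that interval. The Vim peak was already known when this list was written, so the count is a description only. For any assigned peak the counts were 2 of 78, 0 of 30, 4 of 19 and 5 of 21, in the order above. Of all coding genes 6.91% had an assigned peak.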

How the data were processed

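The labels give 1 KLF4 ChIP and 1 input library, grouped by sample title. Per the submitters' processing notes, the tools were MACS2 2.2.7.1, ChIPseeker 1.44.0, Bowtie2 2.4.2, fastp 0.24.0, bcl2fastq 2.17 and deepTools 3.4.1, on build GRCm39; no settings are given, and read totals were not used. The deposited fold of each peak is a linear ratio of ChIP over background, and the authors also deposited per peak a p-value, a q-value and the −log10 of both. Annotation classes and distances were used as deposited.

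Members and lists were chosen with earlier results of these data known. Whole-number fragment counts were recovered from fold, with 1 added to ChIP and background, and the Poisson p (all 4216 peaks within 0.001 of −log10 p; checked on simulated data). Shares have 95% exact (Clopper-Pearson) intervals. Coding and pseudogene peaks were compared by a two-sided Fisher's exact test at a threshold of 0.05. Of 23 symbols 22 were found in a GRCm38.p6 gene table, used for names, counts and neighbours. Among the genes with TSS peaks, Rpl41 and Rpl38 had a usable entry in its promoter table and Rpl32 had none. All coding members and pseudogenes with a promoter peak were to be named, with the 10 other pseudogenes of highest fold; the rest were added. Alternatives were a q under 0.01, promoters within 1 kb, nuclear chromosomes, no high background, 1 peak per gene, and changes of membership. Scripts ran in Python 3.11.15 with scipy 1.17.1, pandas 2.3.3, matplotlib 3.10.9 and numpy 2.4.6. The result of 1 short gene list is not reported here.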

Additional observations from a re-analysis of the deposited data

How the results depend on the processing

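Of 49 values recomputed under the alternatives, 44 kept their size or side of the threshold and 5 did not. With a q under 0.01, 2 peaks were left (Rpl41 and Rpl32), the coding promoter share was 100% and no pseudogene peak remained, so the 4 values that need one were not computed. With promoters within 1 kb the pseudogene promoter share was 0% and the difference between coding and pseudogene peaks was 60.0 percentage points (Fisher's exact p = 0.00649). Without Rps19bp1, an alternative added after the data were seen, it was 63.2 points (p = 0.0276, Fisher's exact). With Rps18-ps4 counted as a pseudogene, also added later, it was 43.3 points (p = 0.0886, Fisher's exact). The first changes follow from fewer peaks and a narrower class by construction. Nuclear chromosomes only, no high background, 1 peak per gene and processed pseudogenes only removed none of the 23 peaks, so their values could not change. The 44 include these values, so that count does not measure stability. No paired analysis was possible because there is 1 library of each kind. Depth limits every value, since 21 of 23 peaks rested on 5 or 6 fragments, as did 3176 of all 4216 peaks.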
